A study of Mus musculus with 6 samples.

Results

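Interferon-stimulated genes are the transcripts that cells raise when interferons bind their receptors. In the synovium of the mouse knee, 49 such genes were followed in 3 kinds of cell: fibroblasts, myeloid cells (monocytes, macrophages and related cells) and endothelium. The 49 genes are known targets that were chosen with earlier results of these data known, and all 49 are present in the count matrices. Each gene's unique molecular identifiers (UMIs, 1 per captured transcript molecule) were summed per library over the cells of a kind and divided by all UMIs of those cells, giving CPM, the UMIs of the gene per 1000000 UMIs.

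The 6 libraries came from mice, with synovium of 10 animals pooled in each and live cells sorted without a cell type gate. A healthy pair and an arthritic pair each set wild type against Notch3-/- knockout, and another arthritic pair set an isotype control antibody against an anti-Notch3 monoclonal antibody. Arthritis followed the transfer of K/BxN serum, whose autoantibodies inflame the joints of the recipient, and Notch3 is a receptor of the Notch pathway. The labels give no genotype for the mice that received antibodies, and strain, age, sex, dose and day are not given in the sources used here. Each group is a single library, so a ratio between 2 groups compares 2 libraries, its interval covers counting error only, and no replicate check stands behind it.

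Type I interferons signal through the kinases JAK1 and TYK2 to transcription factors that bind the interferon-stimulated response element. Type II interferon signals through JAK1 and JAK2, acts at the gamma-activated site and induces IRF1, itself a transcription factor for further targets. The targets block viral replication (the OAS, IFIT and MX families, viperin, tetherin), mark intracellular vacuoles (immunity-related and guanylate-binding GTPases), cut and load peptides for antigen presentation (Psmb8, Psmb9, Tap1) or attract T cells (Cxcl9, Cxcl10). In inflammatory arthritis such genes are often raised together in blood and synovium, which is called an interferon signature.

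The promoters of 41 of the 49 genes were found in RefSeq (GRCm38.p6), and the 250 bases upstream of the start site were searched on both strands for GAAA followed, after any 2 bases, by GAAA (response element) and TTCNNNGAA (activated site). The first was present in 19 of 41 genes (46.3%), against 936 of 27025 genes with a promoter in the table (3.46%). The second was present in 8 of 41 (19.5%), against 2197 of all genes (8.13%). GTPases held the response element in 5 of 6 and the IFIT genes in 3 of 4, while none of the 3 antigen processing genes held it. The windows below are of genes that hold a match, as examples of patterns between the libraries that are described after them and are not exclusive. Isg15 (chr4:156200819-156201068, minus strand), Ifit1 (chr19:34640639-34640888, plus strand) and Bst2 (chr8:71537473-71537722, minus strand) were highest in arthritic wild-type fibroblasts and myeloid cells. Gbp2 (chr3:142620413-142620662, plus strand), Irf1 (chr11:53769764-53770013, plus strand) and Psmb8 (chr17:34197945-34198194, plus strand) were lower in the endothelium of that library than of the arthritic knockout library. Isg15 was also higher in arthritic endothelium with Notch3 targeted (log2 1.21 over the genotype and antibody pairs). Psmb8 was also highest in arthritic wild-type myeloid cells (381 CPM). The relation of motif to direction was not tested. Capitals mark every match of either motif, and the bases run 5′ to 3′ on the gene's strand.
Isg15: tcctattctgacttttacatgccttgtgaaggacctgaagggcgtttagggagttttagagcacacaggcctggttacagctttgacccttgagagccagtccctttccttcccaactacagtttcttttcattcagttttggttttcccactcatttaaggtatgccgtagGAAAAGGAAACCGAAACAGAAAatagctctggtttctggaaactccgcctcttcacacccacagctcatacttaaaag
Ifit1: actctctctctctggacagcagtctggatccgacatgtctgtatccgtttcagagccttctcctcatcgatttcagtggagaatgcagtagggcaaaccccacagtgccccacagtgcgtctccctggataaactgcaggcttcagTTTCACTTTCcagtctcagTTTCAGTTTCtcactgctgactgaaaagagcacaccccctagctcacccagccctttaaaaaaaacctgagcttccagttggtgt
Bst2: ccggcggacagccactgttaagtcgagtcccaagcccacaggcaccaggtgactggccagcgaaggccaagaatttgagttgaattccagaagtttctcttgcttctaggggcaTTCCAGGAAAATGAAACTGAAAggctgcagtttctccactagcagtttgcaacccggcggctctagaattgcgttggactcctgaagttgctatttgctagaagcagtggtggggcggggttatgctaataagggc
Gbp2: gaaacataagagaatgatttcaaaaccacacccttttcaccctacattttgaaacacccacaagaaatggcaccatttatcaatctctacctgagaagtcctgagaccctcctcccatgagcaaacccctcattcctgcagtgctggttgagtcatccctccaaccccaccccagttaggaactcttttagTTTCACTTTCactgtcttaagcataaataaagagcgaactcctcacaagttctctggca
Irf1: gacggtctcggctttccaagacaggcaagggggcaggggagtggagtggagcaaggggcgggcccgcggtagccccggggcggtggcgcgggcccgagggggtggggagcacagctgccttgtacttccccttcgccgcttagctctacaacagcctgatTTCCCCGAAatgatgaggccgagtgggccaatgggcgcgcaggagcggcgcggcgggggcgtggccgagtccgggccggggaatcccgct
Psmb8: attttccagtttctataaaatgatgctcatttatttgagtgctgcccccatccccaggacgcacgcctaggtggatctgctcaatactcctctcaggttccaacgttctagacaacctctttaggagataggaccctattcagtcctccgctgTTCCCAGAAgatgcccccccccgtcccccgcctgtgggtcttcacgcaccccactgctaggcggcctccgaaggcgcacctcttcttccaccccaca
Isg15 held 3 overlapping response elements and Ifit1 held 2 separate ones, on the reverse strand. In Bst2 an activated site overlapped the first of 2 response elements. Gbp2 carried 1 response element, while Irf1 and Psmb8 carried 1 activated site each and no response element. A match is a stretch of letters and not a measured site of binding. Only genes with a match were eligible for a printed window, so the windows do not show how common matches are. The motifs were not used to choose or order the 49 members.

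Cells were assigned by raw UMIs of marker genes, and 16347 of the 18077 retained barcodes (90.4%) fell in the 3 kinds. Fibroblasts numbered 1028 to 3496 per library, myeloid cells 502 to 986 and endothelial cells 106 to 206. Total UMIs per library ranged from 11636998 to 24535233, and 5 to 29 cell barcodes were shared between any 2 libraries. Notch3, the targeted gene, was at 81 and 26 UMIs in healthy and arthritic wild-type fibroblasts and at 6 and 1 UMIs in the corresponding knockout fibroblasts. The 8 fibroblast, 8 myeloid and 8 endothelial markers were each dominant in their own gate. The gates were set on these same markers, so their levels are no separate check of purity. In the fibroblast gate the myeloid markers summed to 21.6 to 97.3 CPM, against 18573 to 33005 CPM in the myeloid gate.

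**Figure D1:**
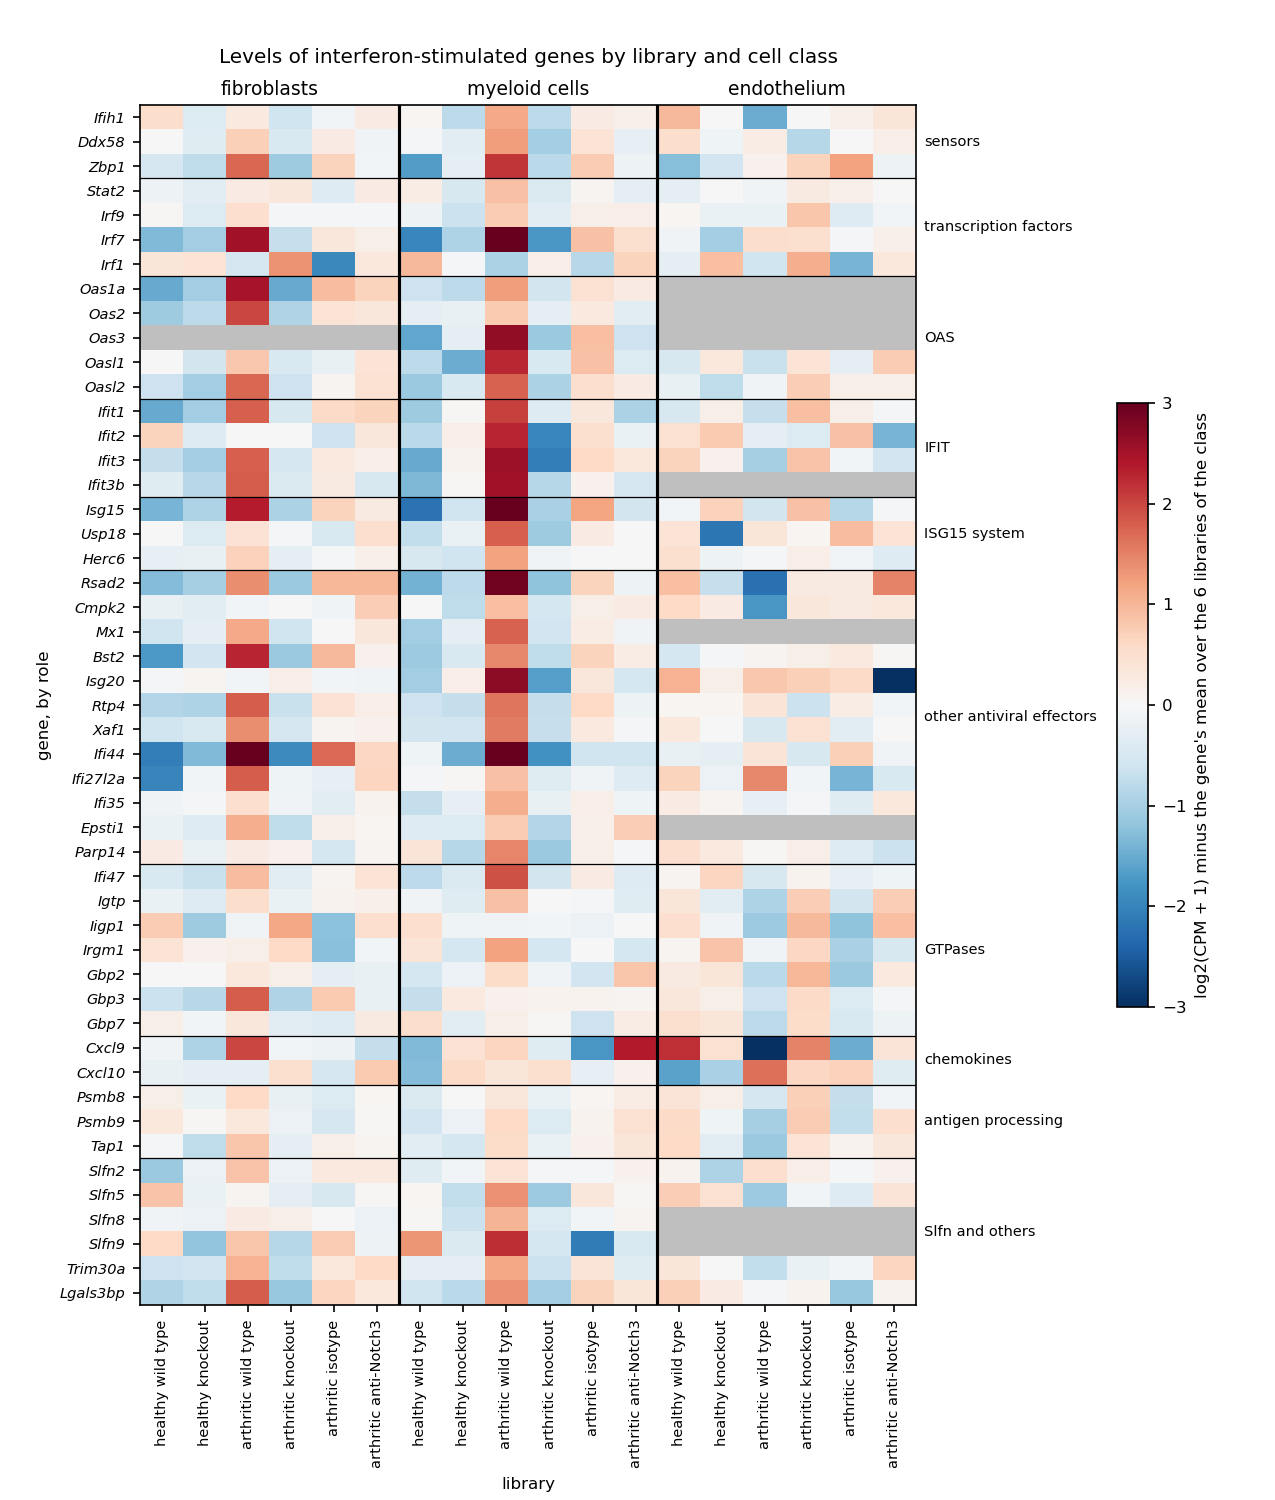
Level of each of the 49 genes (vertical axis, by role) in each library (horizontal axis), as log2(CPM + 1) minus the gene's mean over the 6 libraries of that cell class, with colours held at 3 either way and grey for genes with fewer than 20 UMIs in the class. Arthritic wild-type fibroblasts and myeloid cells are the reddest columns, with Isg15 at 283 and 417 CPM, while the endothelium of the same library is blue for Cxcl9, Rsad2, Iigp1 and the antigen processing genes.

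Most antiviral members stood far higher in fibroblasts of arthritic than of healthy wild-type synovium. The summed level of the 49 genes was 958 CPM in healthy and 3066 CPM in arthritic wild-type fibroblasts. Among 47 members with at least 20 UMIs over both libraries, 24 were more than 2-fold higher and 0 were lower, where 7.22% of all genes tested were higher and 8.64% lower. The median log2 ratio was 1.06 over the members and -0.04 over all genes.

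Isg15, a ubiquitin-like protein that is coupled to other proteins and secreted, was at 20.0 CPM in healthy wild-type fibroblasts, 28.2 in healthy knockout, 283 in arthritic wild-type, 27.8 in arthritic knockout, 88.2 in isotype-treated and 65.7 in anti-Notch3-treated fibroblasts. The arthritic wild-type library was highest, the isotype and anti-Notch3 libraries lay between, and the arthritic knockout library was level with the healthy ones. Against healthy wild type, Isg15 was 14.1-fold higher in the arthritic wild-type library (log2 3.82, 95% exact counting interval 3.65 to 4.0). Bst2, the membrane protein tetherin that holds budding virions, followed the same order, at 36.8, 83.4, 613, 56.9, 246 and 136 CPM in these libraries, and Irf7, the transcription factor that amplifies type I interferon production, nearly so, at 7.40, 9.22, 120, 12.04, 25.8 and 22.8 CPM. Their ratios of arthritic to healthy wild type were 16.7-fold and 16.1-fold.

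The OAS enzymes make the messenger that activates RNase L, and all 4 OAS members that reached the minimum were past 2-fold higher in arthritic wild type. Oas1a had 6 UMIs in healthy wild-type, 16 in healthy knockout, 147 in arthritic wild-type, 3 in arthritic knockout, 100 in isotype-treated and 35 in anti-Notch3-treated fibroblasts. Oas2 had 0 UMIs in healthy and 52 in arthritic wild type, at least 37.6-fold higher against a floor of 3 UMIs in the healthy library. Ifi44, an interferon-induced antiviral protein, had 0 and 225 UMIs, at least 163-fold higher. Of the IFIT genes, whose proteins bind foreign RNA ends, 3 of 4 were past 2-fold (Ifit1 10.9-fold), and Ifit2 was at 9.85 CPM in the healthy and 5.88 CPM in the arthritic library.

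The GTPases and antigen processing genes differed less. Of the 7 GTPases, Ifi47 and Gbp3 alone were past 2-fold (Gbp3 at 4.76 and 30.9 CPM), and none of the 3 antigen processing genes was (Psmb8, a subunit of the immunoproteasome, at 75.4 and 102 CPM). Irf1 was at 130 CPM in healthy and 70.9 CPM in arthritic wild type, and Iigp1, an immunity-related GTPase, at 82.8 and 44.6 CPM, both within 2-fold. Cxcl9 was at 7.21 and 34.4 CPM, and Cxcl10, which acts on the same receptor, at 43.8 and 42.9 CPM.

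In the knockout the same contrast between arthritis and health was small. Of 41 members, 2 were past 2-fold higher (background 3.07%) and 0 lower (background 3.81%). Those were Iigp1 (22.4 CPM in healthy and 109 CPM in arthritic knockout, log2 2.28) and Cxcl9 (3.70 and 7.43 CPM, log2 1.01). With subtypes weighted equally the Cxcl9 value was -0.10. Isg15 differed by -0.02.

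The isotype library, like arthritic wild type a control with arthritis, was lower than arthritic wild type for each of the 47 members tested in fibroblasts. Past 2-fold, 23 of 47 were lower (background 4.48%) and 0 higher (background 4.28%), with a median of -0.97. Irf7 was 120 and 25.8 CPM, Ifi27l2a, a small membrane protein induced by type I interferon, 550 and 131 CPM, and Cxcl9 34.4 and 6.98 CPM. The control antibody, the animals and the library cannot be told apart in this difference between the arthritic controls. With the isotype library in place of arthritic wild type, 16 of 46 members were past 2-fold higher than in healthy wild type (background 9.23%) and 5 lower (background 9.43%), and against the isotype library 15 of 45 were lower in the arthritic knockout (background 10.5%) and 3 higher (background 7.79%).

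Between arthritic knockout and arthritic wild-type fibroblasts, 25 of 45 members were past 2-fold lower (background 7.44%) and 2 higher (background 5.72%), with a median of -1.26 against -0.07 for all genes. By role, 3 of 3 OAS genes, 3 of 4 IFIT genes, 2 of 3 genes of the ISG15 system and 6 of 10 other antiviral effectors were lower. Oas1a was 47.2-fold lower (147 and 3 UMIs, interval of the log2 ratio -8.07 to -4.20), Bst2 10.8-fold, Isg15 10.2-fold and Irf7 9.88-fold. Ifi44, at 225 UMIs in wild type and 1 UMI in the knockout, was 168-fold lower with an interval of 44.8-fold to 10002-fold. Lgals3bp, a secreted galectin-binding glycoprotein, was at 227 and 28.4 CPM, and Zbp1, a sensor of Z-form nucleic acid, at 79.6 and 10.6 CPM.

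Irf1 and Iigp1 went the other way. Irf1 was at 130 CPM in healthy wild-type, 135 in healthy knockout, 70.9 in arthritic wild-type, 259 in arthritic knockout, 25.4 in isotype-treated and 125 in anti-Notch3-treated fibroblasts. Each arthritic library with Notch3 targeted thus lay above its own control, by log2 1.87 (interval 1.73 to 2.02) for the knockout and 2.29 (2.12 to 2.47) for the antibody. Iigp1 stood at 82.8, 22.4, 44.6, 109, 20.1 and 68.6 CPM across these libraries, with log2 ratios of 1.29 (1.10 to 1.48) and 1.77 (1.56 to 1.99). It was the reverse in the healthy pair, where Iigp1 was lower in the knockout by log2 -1.89. Of 16 genes of dissociation stress, immediate-early and heat shock genes that tissue digestion induces, 5 were past 2-fold higher and 0 lower in the arthritic knockout against wild type (background 5.72% and 7.44%), and 4 were higher and 3 lower with the antibody (background 4.8% and 6.23%). Irf1 responds to stress as well as to interferon, and the part of tissue handling in its values was not tested.

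Between anti-Notch3 and isotype, 7 of 45 members were past 2-fold higher in fibroblasts (background 4.8%) and 4 lower (background 6.23%), and the median was 0.05. Besides Irf1 and Iigp1, the higher members included Cxcl10 (36.4 and 89.6 CPM, log2 1.30), Irgm1, a GTPase of autophagy (9.98 and 23.7 CPM, log2 1.25), and Ifit2 (3.46 and 7.74 CPM). The lower members were Ifi44 (193 and 36 UMIs, log2 -1.19), Ifit3b, Gbp3 (14.7 and 6.83 CPM) and Slfn9. With subtypes weighted equally there were 9 higher members (3.93% of all genes) and 0 lower (5.9%), and Ifi44 was at 0.33. Isg15 and Bst2 were within 2-fold, at log2 -0.42 and -0.85. Ifit3 and Ifit3b, and Slfn8 and Slfn9, are near-identical neighbours between which the counting could divide reads, so their separate values are uncertain.

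In the healthy pair, 4 of 42 members were past 2-fold higher in knockout fibroblasts (background 5.74%) and 5 lower (background 6.1%), or 4 and 3 with TMM scaling (6.41% and 5.02% of all genes). Ifi27l2a was at 38.7 CPM in wild type and 149 CPM in the knockout, and Bst2 at 36.8 and 83.4 CPM. Slfn9, a Schlafen family member, was at 7.40 and 1.42 CPM in this pair, 8.90 and 2.05 CPM in the arthritic genotype pair, and 8.29 and 3.95 CPM in the antibody pair. It was past 2-fold lower with Notch3 targeted in each of the 3 pairs, but in the antibody pair (log2 -1.05) it was at -0.31 with subtypes weighted equally and at -0.29 with stricter gates.

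**Figure D2:**
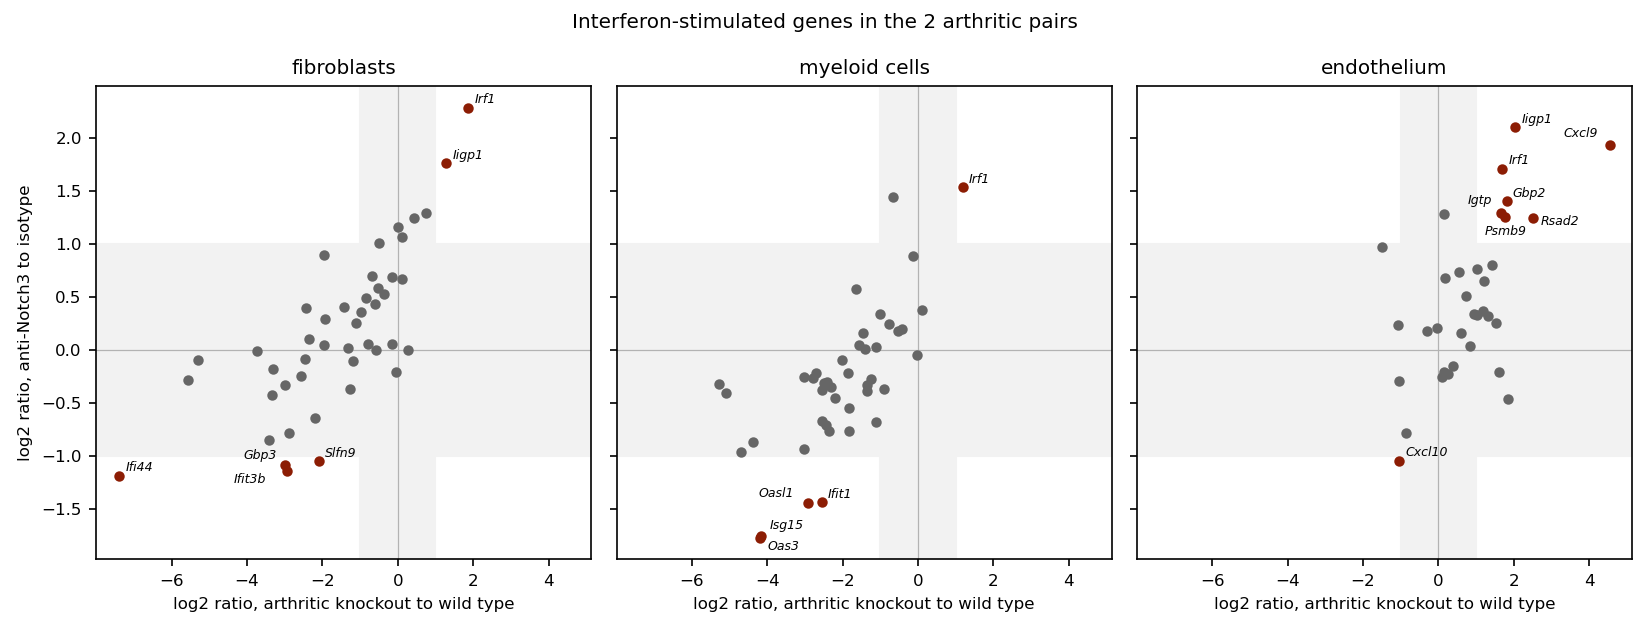
Log2 ratio of arthritic knockout to arthritic wild type (horizontal axis) against log2 ratio of anti-Notch3 to isotype (vertical axis), 1 point per member with at least 20 UMIs in both comparisons, with grey bands within 2-fold and named red points past 2-fold in both. In both pairs of fibroblasts Irf1 and Iigp1 are past 2-fold higher and Ifi44, Ifit3b, Gbp3 and Slfn9 lower, in both pairs of myeloid cells Irf1 is higher and Isg15, Oas3, Oasl1 and Ifit1 lower, and in both pairs of endothelium Iigp1, Cxcl9, Irf1, Gbp2, Igtp, Psmb9 and Rsad2 are higher and Cxcl10 lower.

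Within each fibroblast gate with at least 20 cells in both libraries, the summed level was lower in arthritic knockout than in arthritic wild type. Outside the lining, the log2 ratio was -1.98 in tendon-like, -1.34 in Sfrp4, -1.33 in Pi16 and -0.57 in Ccl11/Smoc2 fibroblasts. It was -0.93 in fibroblasts of no subtype and -1.35 over all fibroblasts. The Saa3/Cxcl5, H19/Cthrc1, Myoc/Dkk2 and Tnn/Acan gates had too few cells for this comparison. Lining fibroblasts, which face the joint cavity, had a summed level of 473 CPM in healthy wild-type, 569 in healthy knockout, 2226 in arthritic wild-type, 457 in arthritic knockout, 759 in isotype-treated and 931 in anti-Notch3-treated synovium (61 to 656 cells). The arthritic knockout was lower than the arthritic wild type by log2 -2.28 (interval -2.45 to -2.12), with 13 of 20 members past 2-fold lower (background 5.66%). Isg15 in lining fibroblasts was at 12.7, 15.5, 169, 8.06, 44.4 and 88.6 CPM. In the Sfrp4 sublining fibroblasts 16 of 28 members were lower (background 7.33%) and 2 higher (background 6.01%), and in the Pi16 fibroblasts 11 of 19 were lower (background 6.48%). Between anti-Notch3 and isotype the summed level differed by log2 0.30 in lining, 0.15 in Pi16, 0.88 in Ccl11/Smoc2 and 0.87 in H19/Cthrc1 fibroblasts. It differed by 1.05 in fibroblasts of no subtype, -0.08 in Sfrp4 and -0.30 in Myoc/Dkk2 fibroblasts. In the H19/Cthrc1 gate 15 of 41 members were higher (background 4.88%) and 1 lower (background 8.71%). The difference between the pairs was not tested.

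The cell make-up of the libraries differed alongside. Fibroblasts with Saa3 and Cxcl5, genes of acute inflammation, numbered 251 in arthritic wild type (24.4% of its fibroblasts) and 212 in isotype (10.9%), against 1 to 19 cells in the others. They had the highest summed level of any fibroblast gate, 4294 CPM in arthritic wild type and 2798 CPM in isotype, and Isg15 was at 526 and 318 CPM in them. Without this gate, 21 members were lower (6.02% of all genes) and 3 higher (4.17%) in the arthritic genotype pair, and 21 were higher (6.3%) and 0 lower (7.11%) in arthritic against healthy wild type. In the antibody pair 9 were then higher (4.53%) and 0 lower (6.06%), so the calls of Ifi44, Ifit3b, Gbp3 and Slfn9 as lower ended.

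Irf1 and Iigp1 were high in a different subtype. In Ccl11/Smoc2 fibroblasts, sublining cells that express the chemokine Ccl11, Iigp1 was at 319, 117, 296, 383, 110 and 278 CPM in the 6 libraries in the order above, while in lining fibroblasts it did not pass 6.45 CPM. Irf1 in Ccl11/Smoc2 fibroblasts was at 223, 373, 407, 473, 81.4 and 399 CPM. The isotype library was the lowest of the 6 for both genes, and the arthritic wild-type and knockout libraries lay close together. Ccl11/Smoc2 cells numbered 48 of 1028 fibroblasts in arthritic wild type, 362 of 1673 in arthritic knockout, 69 of 1949 in isotype and 72 of 1029 in anti-Notch3, and the part of these shares in the levels over all fibroblasts was not tested.

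**Figure D3:**
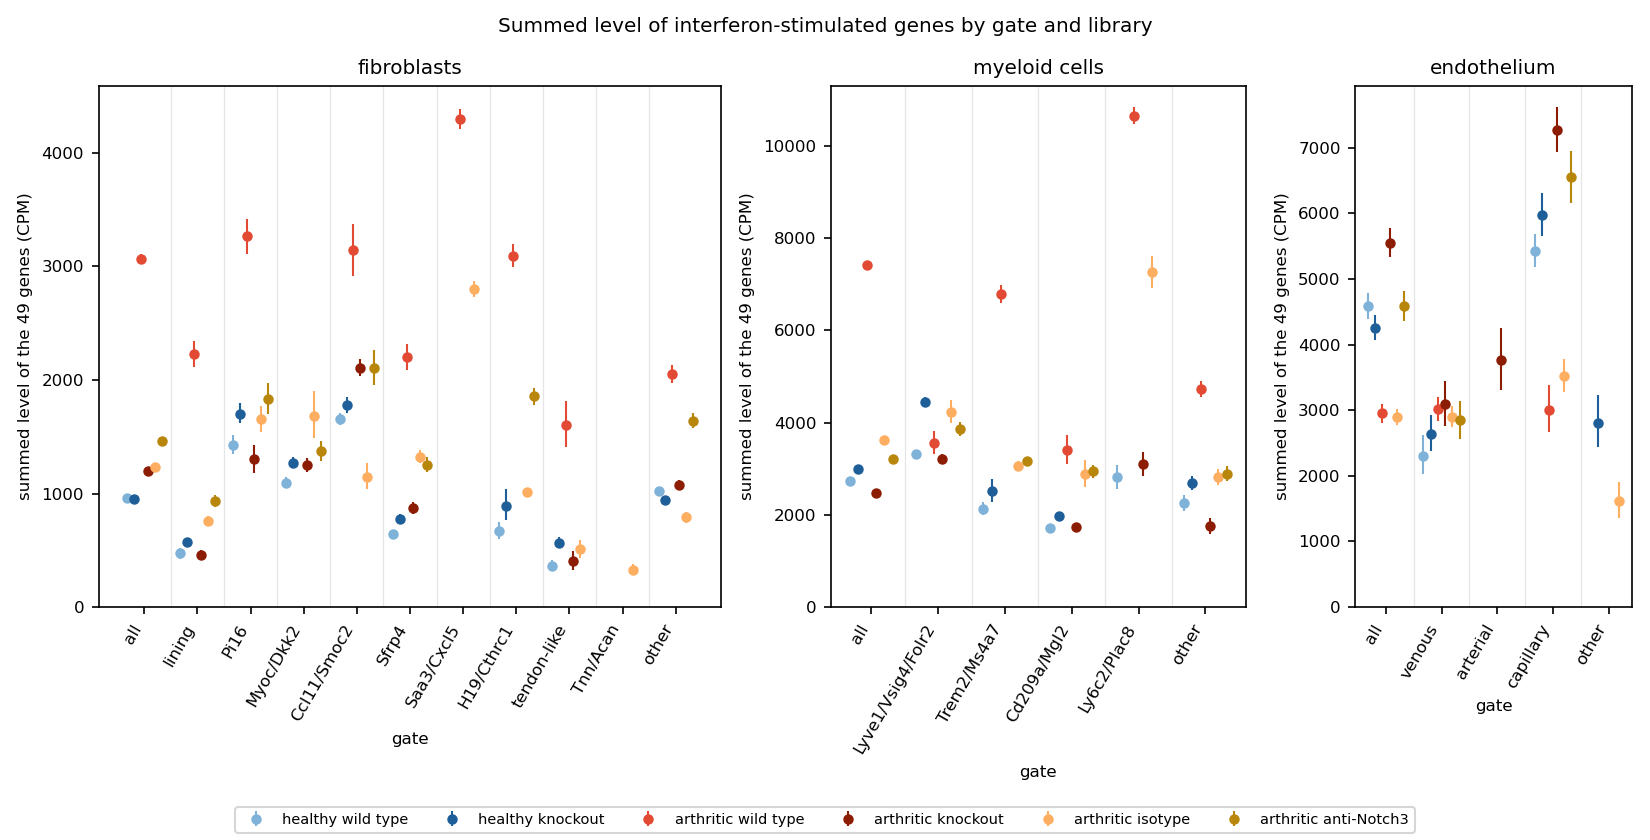
Summed level of the 49 genes in CPM (vertical axis, from 0) in each gate with at least 20 cells (horizontal axis) and library (colour), with bars for the exact 95% counting interval. Arthritic wild type is the highest library in the fibroblast gates shown for it (2226 CPM in lining, 4294 CPM in Saa3/Cxcl5) and in Ly6c2/Plac8 myeloid cells (10650 CPM), but not among Lyve1/Vsig4/Folr2 macrophages or capillaries.

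In myeloid cells most members were likewise highest in arthritic wild type. The summed level was 2737 CPM in healthy wild-type, 3002 in healthy knockout, 7416 in arthritic wild-type, 2469 in arthritic knockout, 3618 in isotype-treated and 3206 in anti-Notch3-treated synovium. Ifi27l2a alone made up 1451 CPM of this sum in healthy and 2770 CPM in arthritic wild type. Of 48 members, 36 were past 2-fold higher in arthritic than healthy wild type (background 6.14%) and 1, Irf1, lower (background 18.1%), with a median of 1.60 against -0.35 for all genes. TMM scaling, which assumes that most genes are level, moved all genes by 0.25 here and gave 44 members higher (8.44% of all genes) and 1 lower (12.1%). Between arthritic knockout and wild type 38 of 47 were lower (background 7.15%) and 1, Irf1, higher (background 8.31%), with a median of -2.21.

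Irf7 was at 12.9, 27.5, 520, 15.2, 98.7 and 74.6 CPM in the myeloid cells of these libraries, and Isg15 at 9.21, 30.0, 417, 23.1, 106 and 31.3 CPM. The arthritic wild-type library stood alone, with isotype next. Irf7 was 33.9-fold and Isg15 17.9-fold lower in arthritic knockout than wild type. Ifi44 had 262 UMIs in arthritic wild type and 0 in the knockout (at least 71.1-fold lower), and Ifit2 had 56 and 0 UMIs (at least 15.2-fold lower). Rsad2, the enzyme viperin, which makes a chain-terminating nucleotide, was at 78.3 and 3.59 CPM, and Isg20, an exonuclease of RNA, at 67.6 and 2.39 CPM. Ifi27l2a was the most abundant member and differed less, at 2770 and 1164 CPM.

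The isotype library again lay below arthritic wild type, with 25 of 47 members past 2-fold lower (background 4.63%) and 0 higher (background 4.96%). TMM scaling, which moved all genes by -0.12, gave 30 lower (5.85% of all genes) and 0 higher (3.81%). With subtypes weighted equally 11 were lower (4.77%) and 0 higher (5.4%). Against the isotype library, 21 of 43 members were past 2-fold lower in the arthritic knockout (background 5.7%) and 1 higher (background 6.21%), in place of the 38 and 1 above. Isotype against healthy wild type had 18 of 45 members higher (background 4.22%) and 3 lower (background 12.9%). Anti-Notch3 against isotype had 3 of 44 members higher (background 2.66%) and 4 lower (background 5.08%). TMM scaling moved all genes by 0.16 and gave 4 and 4 (4.42% and 3.39% of all genes). The lower ones were Isg15 (log2 -1.76), Oas3, Oasl1 and Ifit1. The higher ones were Irf1 (28.7 and 84.0 CPM), Gbp2, a guanylate-binding GTPase (11.2 and 31.0 CPM), and Cxcl9, with 0 UMIs in isotype and 61 with anti-Notch3, at least 12.1-fold higher.

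In the healthy pair of myeloid cells, 10 of 46 members were past 2-fold higher in the knockout (background 3.26%) and 3 lower (background 11.7%). With TMM scaling, which moved all genes by 0.26, 12 were higher (4.61% of all genes) and 2 lower (6.3%). Cxcl10 was at 12.3 and 48.0 CPM, Isg15 at 9.21 and 30.0 CPM and Ifit3 at 2.26 and 8.91 CPM. With stricter marker gates 2 of 32 members were higher (2.73% of all genes) and 3 lower (15.9%). Isg15 was then at log2 -1.13 and Ifit3 at -0.03, so those calls did not hold. Between arthritic and healthy knockout 0 of 42 were higher (background 3.8%) and 3 lower (background 2.27%), namely Ifit3, Isg20 and Oas3. With stricter gates the split turned over, to 3 of 22 higher (7.21% of all genes) and 0 lower (3.53%), and Ifit3 was at log2 1.26. With subtypes weighted equally 8 were lower (3.88% of all genes) and 0 higher (4.76%).

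The level differed by myeloid subtype. Ly6c2/Plac8 cells, which carry markers of inflammatory monocytes, were 33.3% of myeloid cells in arthritic wild type (328 cells), 7.37% in arthritic knockout (37 cells) and 10.1% in isotype (59 cells). Their summed level was 10650 CPM in arthritic wild type, 3095 in arthritic knockout and 7260 in isotype, and 38 of 46 members were past 2-fold lower in the knockout than in wild type within this gate (background 16.2%). Irf7 in them was at 923, 93.2 and 312 CPM in these libraries. Lyve1/Vsig4/Folr2 macrophages, with markers of resident macrophages, were at 3315, 4447, 3565, 3212, 4229 and 3860 CPM in the 6 libraries, with 0 of 21 members lower (background 4.46%) and 4 higher (background 6.27%) between arthritic knockout and wild type. In arthritic against healthy wild type 37 of 46 members were higher in the Ly6c2/Plac8 gate (background 12.8%) and 23 of 37 in the Trem2/Ms4a7 macrophage gate (background 7.37%). The healthy wild-type library held 28 Ly6c2/Plac8 cells, and the arthritic wild-type library held 62 Lyve1/Vsig4/Folr2 cells. In the Lyve1/Vsig4/Folr2 gate 2 of 36 were higher (background 5.26%) and 14 lower (background 14.3%). The median member there was at log2 -0.56, while the summed level was at 0.10. The difference between these gates was not tested.

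**Figure D4:**
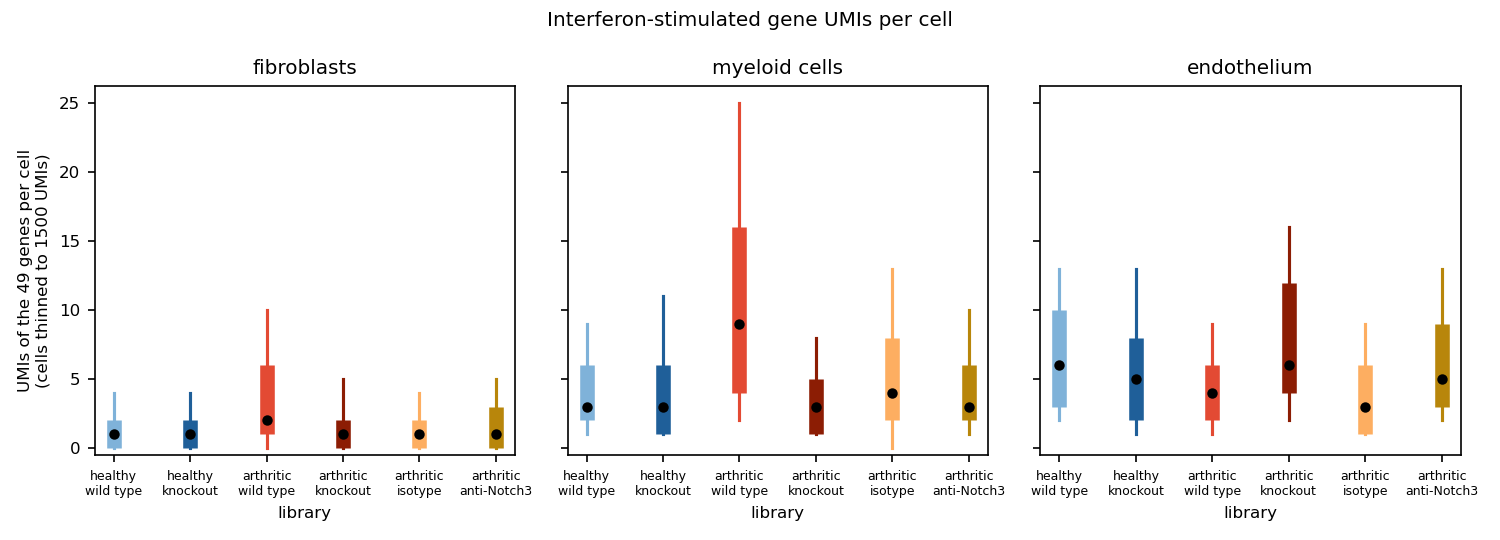
UMIs of the 49 genes per cell (vertical axis) after each cell was thinned to 1500 UMIs, by library (horizontal axis), with the median as a black point, the middle 50% of cells as a thick bar and the 10th to 90th percentile as a thin one. Arthritic wild-type myeloid cells have a median of 9 UMIs against 3 or 4 in the other libraries.

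The higher level was carried by many cells. After thinning to 1500 UMIs per cell, the median myeloid cell had 9 member UMIs in arthritic wild type, 4 in isotype and 3 in each of the other libraries, and 46.0% of the arthritic wild-type cells had 10 or more. Fibroblasts had a median of 2 in arthritic wild type and 1 elsewhere, with 10.3% of cells at 10 or more in arthritic wild type against 1.04% to 2.57% in the others. Before thinning, the medians were 16 in arthritic wild-type and 8 to 14 in other myeloid cells, and 10 in arthritic wild-type and 3 to 6 in other fibroblasts. Thinning left out 202 shallower myeloid cells of arthritic wild type and 10 to 67 in the others. RNA free in the droplets could add member UMIs to every cell. In arthritic wild type the 8 myeloid markers were at 82.7 CPM in fibroblasts and 23795 CPM in myeloid cells. Isg15 was at 283 and 417 CPM. The gates were set on these same markers, so the marker levels cannot measure free RNA. Its part in the values was not tested.

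Compared with healthy wild type and with the arthritic knockout, the arthritic wild-type endothelium had a lower summed level, where fibroblasts and myeloid cells had a higher one. Its summed level was 4588 CPM in healthy wild-type, 4259 in healthy knockout, 2952 in arthritic wild-type, 5551 in arthritic knockout, 2900 in isotype-treated and 4581 in anti-Notch3-treated synovium. The arthritic wild-type and isotype libraries were thus the lowest, and each arthritic library with Notch3 targeted lay above its control. Of 34 members, 16 were past 2-fold higher in arthritic knockout than arthritic wild type (background 9.42%) and 4 lower (background 9.69%), with a median of 0.89. With stricter gates, which left 18 members tested, 8 were higher (12.5% of all genes) and 2 lower (10.3%). Of 37 members, 8 were higher with anti-Notch3 than isotype (background 6.18%) and 1 lower (background 8.06%), with a median of 0.33.

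Iigp1 was at 737 CPM in healthy wild-type, 484 in healthy knockout, 244 in arthritic wild-type, 1009 in arthritic knockout, 225 in isotype-treated and 969 in anti-Notch3-treated endothelium. The arthritic wild-type and isotype values lay side by side, as did those of the knockout and the antibody. The ratios were 4.13-fold (log2 2.05, interval 1.76 to 2.34) for the knockout and 4.31-fold (2.11, 1.84 to 2.38) for the antibody. Gbp2 was at 105, 111, 48.8, 173, 39.8 and 106 CPM, and Irf1 at 232, 528, 186, 605, 107 and 351 CPM. Of the 16 dissociation stress genes, 8 were past 2-fold higher and 0 lower in the endothelium of the arthritic knockout against wild type (background 9.42% and 9.69%), and 6 were higher and 1 lower with the antibody (background 6.18% and 8.06%), and their part in these values was not tested.

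The antigen processing genes differed in the same direction. Psmb9, an immunoproteasome subunit, was at 142, 86.2, 46.9, 162, 56.5 and 136 CPM, and Psmb8 at 296, 257, 159, 373, 137 and 215 CPM. All 3 were past 2-fold higher in arthritic knockout than wild type, and Psmb9 alone was with the antibody. Psmb9, Tap1 (the peptide transporter) and Psmb8 lie on chromosome 17, 2.02 to 2.03 Mb from Notch3, so linked alleles carried with the knockout cannot be told apart from it in the genotype pairs. Of the 7 GTPases, 5 were higher in the arthritic knockout and 3 with the antibody.

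The chemokines split. Cxcl9 had 81, 25, 2, 48, 10 and 17 UMIs in the endothelium of the 6 libraries, and was higher in both Notch3-targeted arthritic libraries (log2 4.54, interval 2.91 to 7.93, and 1.93, interval 0.75 to 3.25). Cxcl10 had 6, 10, 72, 29, 54 and 11 UMIs, and was lower in both (log2 -1.04 and -1.05). With subtypes weighted equally the first of these Cxcl10 values was 0.07. In arthritic against healthy wild-type endothelium 12 of 35 members were lower (background 13.5%) and 1, Cxcl10, higher (background 8.22%), and TMM scaling, which moved all genes by 0.18, left 10 lower (9.96% of all genes) and 1 higher (12.1%). Before that scaling Cxcl9 was 38.1-fold, Rsad2 8.81-fold and Iigp1 3.01-fold lower.

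With isotype in place of arthritic wild type, 14 of 37 members were higher in the arthritic knockout (background 8.53%) and 1 lower (background 11.6%), and against healthy wild type 1 of 39 was higher (background 8.21%) and 10 lower (background 11.5%). Of the remaining endothelial comparisons, arthritic against healthy knockout had a median log2 ratio of 0.37, close to the 0.33 of the antibody pair. In the healthy pair 1 of 35 was higher (Irf1, background 4.18%) and 3 lower (background 8.58%), or 1 and 2 with TMM scaling, which moved all genes by 0.18 (6.11% and 5.5% of them past 2-fold). In arthritic against healthy knockout 8 of 34 were higher (background 3.88%) and 0 lower (background 4.73%), and in isotype against arthritic wild type 4 of 37 were higher (background 4.38%) and 2 lower (background 2.77%). With subtypes weighted equally the first of these had 4 higher (5.09% of all genes) and 2 lower (6.89%). The second had 9 higher (7.79%) and 3 lower (4.13%). Slfn2, past 2-fold lower in the healthy knockout, was at log2 0.50 with stricter gates. The healthy wild-type endothelial gate also held erythroid markers at 21221 CPM, against at most 40.5 CPM in the others, and their part in the levels of that library was not tested. The 6 T and NK cell markers were at 0 UMIs in the endothelial gate of 5 of the 6 libraries and at 1 UMI in isotype.

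The vessel make-up differed alongside. Capillary cells were 82.1% of endothelium in healthy wild-type, 54.9% in healthy knockout, 20.8% in arthritic wild-type, 63.4% in arthritic knockout, 30.6% in isotype-treated and 56.6% in anti-Notch3-treated synovium. Within the capillary gate (22 to 130 cells) the summed level was 5427, 5973, 3008, 7271, 3522 and 6546 CPM. The arthritic knockout was higher than wild type by log2 1.27 (interval 1.09 to 1.46), with 15 of 24 members past 2-fold higher (background 14.7%) and 1 lower (background 10.4%). The antibody library was higher than isotype by 0.89 (0.76 to 1.03), with 7 of 24 higher (background 8.15%) and 0 lower (background 9.92%). Iigp1 in capillaries was at 831, 693, 187, 1422, 218 and 1420 CPM. The capillary values of the controls rest on 22 cells in arthritic wild type and 57 in isotype. Over the whole endothelium the log2 ratios of the summed level were 0.91 for the knockout and 0.66 for the antibody. The part of the vessel make-up in these values was not tested.

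Venous cells differed less between the libraries. Their summed level was 2309, 2644, 3013, 3088, 2897 and 2844 CPM, with log2 ratios of 0.04 and -0.03 in the arthritic genotype and antibody pairs. Iigp1 in venous cells was at 471, 339, 298, 541, 265 and 653 CPM. Cxcl10 was mostly venous, at 183 CPM in arthritic wild-type, 187 in arthritic knockout, 117 in isotype-treated and 44.6 in anti-Notch3-treated venous cells, and at most 38.9 CPM in capillaries. The difference between the capillary and venous gates was not tested.

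**Figure D5:**
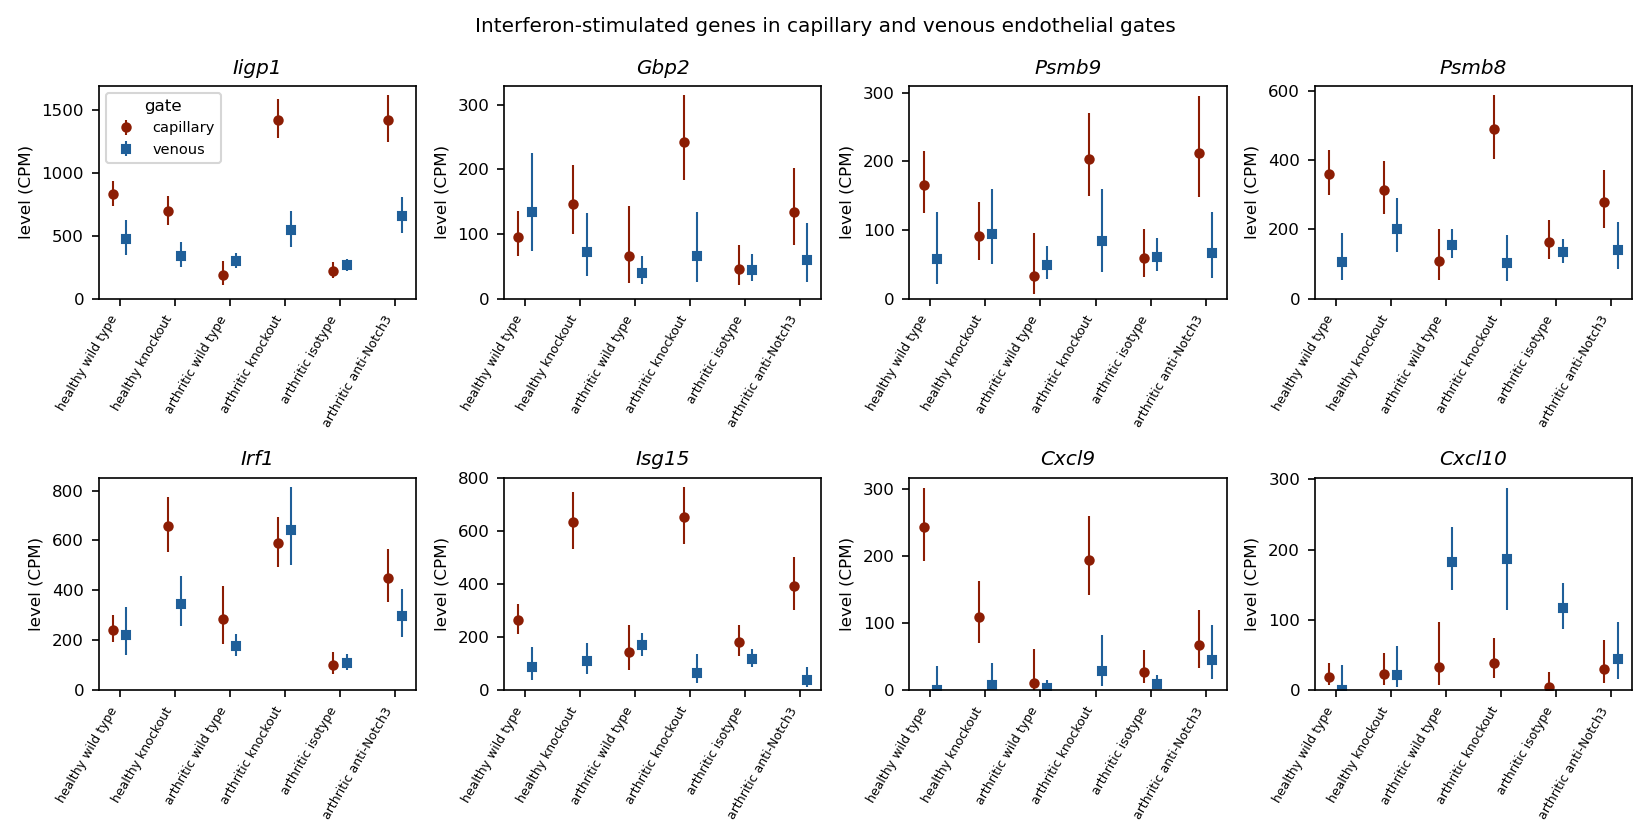
Level of 8 members in CPM (vertical axes, each from 0) in the capillary (circles) and venous (squares) gates of each library (horizontal axes), with bars for the exact 95% counting interval. Capillary Iigp1 lies at 1422 and 1420 CPM in the arthritic knockout and anti-Notch3 libraries and at 187 and 218 CPM in their controls, while Cxcl10 is higher in venous cells of the arthritic libraries.

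A test across libraries was possible only by treating the 3 pairs (healthy genotype, arthritic genotype, arthritic antibody) as repeats of Notch3 targeting, which assumes that knockout and antibody act alike. In edgeR's quasi-likelihood test with Benjamini-Hochberg adjustment over all genes, none of 48 members in fibroblasts, 46 in myeloid cells and 36 in endothelium passed 0.05, while 8, 4 and 5 had an unadjusted p under 0.05. DESeq2 called 1 member higher and 1 lower in fibroblasts, 0 in myeloid cells and 1 higher in endothelium. Over all genes DESeq2 called 116 higher and 57 lower of 12759, 18 and 11 of 10350, and 14 and 2 of 6333. Over all genes edgeR called 0 of 12759 in fibroblasts, 0 of 10350 in myeloid cells and 1 of 6333 in endothelium (0.0158%). The smallest adjusted p among members was 0.345 for Slfn9 in fibroblasts (log2 -1.77, SE 0.34), 0.715 for Oasl1 in myeloid cells and 0.193 for Irf1 in endothelium (log2 1.62, SE 0.25), all with edgeR. Over the alternatives run, the smallest adjusted p among members ranged from 0.0145 to 0.647 in fibroblasts, 0.00174 to 0.740 in myeloid cells and 5.42e-18 to 1.0 in endothelium, by edgeR or DESeq2.

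Leaving out the arthritic genotype pair or the arthritic antibody pair left 0 members called in each class with edgeR, with 2, 4 and 2 members at an unadjusted p under 0.05 in fibroblasts, myeloid cells and endothelium without the first and 7, 11 and 4 without the second. Without the healthy pair, the 2 arthritic pairs gave calls. This fit leaves 1 residual degree of freedom, so its p-values rest on a spread shared across genes. In fibroblasts 3 of 45 members were higher (background 1.66%) and 0 lower (background 1.28%): Irf1 (log2 2.16, SE 0.18, edgeR adjusted p = 0.0145), Iigp1 (1.60, adjusted p = 0.0215) and Cxcl10 (1.11, adjusted p = 0.0460). In myeloid cells 0 of 45 passed, with 15 at an unadjusted p under 0.05. In endothelium 11 of 36 were higher (background 8.25%) and 1 lower (background 5.3%). These included Iigp1 (log2 2.16, SE 0.23, edgeR adjusted p = 5.42e-18), Irf1 (1.79, adjusted p = 3.15e-12), Cxcl9 (3.11, adjusted p = 5.73e-10), Gbp2 (1.71, adjusted p = 2.65e-07), Psmb9 (1.59, adjusted p = 6.62e-07) and Isg15 (1.21, adjusted p = 1.01e-05), and the lower member was Cxcl10 (-0.98, adjusted p = 0.0180).

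Other genes of the pathway were counted from lists that include interferon ligands and further targets. None of 10 interferon ligand genes reached 20 UMIs over both libraries in any class or comparison. In fibroblasts of the arthritic knockout against wild type, the further targets had 11 of 30 past 2-fold lower (background 7.44%), among them Eif2ak2 (the kinase PKR), Parp9 and Ly6e, and 1 higher (background 5.72%), Cd274 (the ligand PD-L1).

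In myeloid cells 18 of 30 further targets were lower (background 7.15%) and 0 higher (background 8.31%) in the same comparison, and in endothelium 6 of 24 were higher (Trim25, Gbp4, Psmb10, Tap2, Nmi and H2-K1, background 9.42%) and 0 lower (background 9.69%). With anti-Notch3 against isotype, the further targets had 0 of 25 higher and 1 lower in fibroblasts (background 4.8% and 6.23%), 0 of 28 and 2 in myeloid cells (2.66% and 5.08%), and 2 of 25 (Adar and Tap2) and 0 in endothelium (6.18% and 8.06%), shares near or below the background.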

How the data were processed

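Droplet-based single-cell RNA sequencing (Single Cell 3′ kit, 10x Genomics) was run on 6 pools of dissociated mouse synovium, 1 library per group. The values deposited are unnormalized UMI counts by gene and barcode, made with Cell Ranger 3.0.2 and the build mm10 per the submitters' processing notes; the sources used here give no further step by the authors. The members and lists were chosen with earlier results of these data known. Barcodes over 10% mitochondrial UMIs were left out (414 of 18491). All barcodes in the matrices held at least 501 genes and at most 19.9% mitochondrial UMIs, so the alternative limit of 20% left none out.

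Fibroblasts (at least 10 UMIs of 8 markers), myeloid cells (at least 10) and endothelium (at least 5) were gated on raw marker UMIs, and barcodes with marker UMIs of another class above a limit were left out in place of a doublet caller. The limits were set on the markers after seeing their distributions. Members are counted in all cells of a gate. UMIs were summed per library and gate and given as CPM with exact 95% Poisson intervals. Ratios used a pseudocount of 0.5 UMIs, and a gene was called past 2-fold where both libraries held at least 20 UMIs together. A count of 0 was set to a floor of 3 UMIs for a bound. The genes named are the 49 members by role, with up to 5 in each direction per comparison, plus counts for the interferon ligands and further targets.

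Pairs were joined in edgeR 4.0.16 (quasi-likelihood, TMM scaling, terms for pair and targeting, 2 residual degrees of freedom), with DESeq2 1.42.0 as an alternative. Intervals and floors cover counting error only. Alternatives were TMM scaling, a mitochondrial limit of 20%, stricter gates, a fold of 1.5, a minimum of 5 UMIs and subtypes weighted equally; the isotype library in place of arthritic wild type and leaving out the Saa3/Cxcl5 gate were added after seeing the data. A result on the signalling genes is not reported here.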

Additional observations from a re-analysis of the deposited data

Results flagged for a closer look

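In wild-type mice, 3 members were past 2-fold in opposite directions between arthritic and healthy libraries, lower in endothelium and higher in both other classes. Ifit3 was at log2 -1.68 in endothelium, 2.69 in fibroblasts and 4.53 in myeloid cells, a difference of -4.37 between endothelium and fibroblasts. Rsad2 was at -3.14, 4.40 and 4.69, a difference of -7.54. Trim30a, a regulator of innate signalling, was at -1.12, 1.79 and 1.44, a difference of -2.91. With 1 library per group these differences were not tested. Counted over all cells of a class, no member was past 2-fold in opposite directions in the genotype and antibody pairs of the arthritic libraries. Over all fibroblasts, however, the summed level was lower in the genotype pair (log2 -1.35) and higher in the antibody pair (log2 0.25, interval 0.22 to 0.29). The same split was seen in lining, Pi16 and Ccl11/Smoc2 fibroblasts and in those of no subtype. In Pi16 fibroblasts the interval of the antibody pair reached -0.002. Sfrp4 fibroblasts were lower in both pairs (-1.34 and -0.08).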

How the results depend on the processing

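Results rest on 1 library of pooled mice per group. TMM scaling and a mitochondrial limit of 20%, which left out no barcode, left all 18 counts of members past 2-fold within 1.5 times of those reported. Each group holds a single library, so no replicate number could serve as a block; the pairs in edgeR are the design's own contrasts. Stricter gates left too few cells for 2 of the 18 counts.

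Counts below are of members higher and lower, with the shares of all genes past the same threshold in brackets. In fibroblasts, stricter gates gave 3 and 2 of 40 for the healthy pair (4.22%, 5.93%). They gave 6 and 1 of 43 for the antibody pair (4.38%, 6.49%) and 1 and 0 of 40 for arthritic against healthy knockout (2.62%, 3.45%). In myeloid cells of the healthy pair they gave 2 and 3 of 32 (2.73%, 15.9%). In endothelium they gave 8 and 2 of 18 for arthritic knockout against wild type (12.5%, 10.3%). The endothelial counts were 2 and 6 of 21 for arthritic against healthy wild type (8.62%, 14.8%). They were 2 and 0 of 15 for arthritic against healthy knockout (8.12%, 5.31%). At 1.5-fold the fibroblast counts were 18 (antibody pair), 8 (arthritic against healthy knockout) and 36 (isotype against arthritic wild type), the myeloid counts 27 (healthy pair), 16, 6 and 40 (the same 3), and the endothelial counts 16 (healthy pair), 16, 21 (arthritic against healthy wild type), 15 and 13. A minimum of 5 UMIs gave 5 in fibroblasts and 7 in myeloid cells for arthritic against healthy knockout, and 10 in endothelium for isotype against arthritic wild type. Weighting subtypes equally gave 13 and 8 in myeloid cells of the healthy pair (3.48%, 12.1%). For arthritic against healthy knockout it gave 0 and 8 in myeloid cells (4.76%, 3.88%). For isotype against arthritic wild type it gave 0 and 11 in myeloid cells (5.4%, 4.77%) and 9 and 3 in endothelium (7.79%, 4.13%). With isotype in place of arthritic wild type the myeloid counts were 22 against the arthritic knockout and 21 against healthy wild type. The cause was not tested for these.

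Single members that reversed were, under stricter gates, Ifit3 (-0.028) and Isg15 (-1.13) in the myeloid healthy pair, Ifit3 (1.26) in myeloid arthritic against healthy knockout and Slfn2 (0.50) in the endothelial healthy pair, and with equal weights Ifi44 (0.33) in the fibroblast antibody pair, Cxcl9 (-0.10) in fibroblast arthritic against healthy knockout and Cxcl10 (0.067) in the endothelial arthritic genotype pair. In the test over pairs, where edgeR called 0 members, DESeq2 called 2 in fibroblasts and 1 in endothelium, and edgeR without the healthy pair 3 and 12. The calls over all genes for these are given with the test. Without a filter edgeR called 2 members lower in myeloid cells, with 49 genes higher and 51 lower of 17016. In endothelium it called 3 members higher, with 117 genes higher and 55 lower of 14560. Stricter gates gave 1 member lower in myeloid cells, with 4 genes higher and 9 lower of 7545.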
